A study of Homo sapiens with 12 samples.

Results

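The lysosomal hydrolases and cathepsins were examined as 45 genes, taken from the count table by gene symbol: lysosomal proteases, glycosidases, sulfatases, lipid hydrolases, their activator proteins, 2 acid phosphatases and a nuclease. All 45 were found among the 45478 genes of the table, and 44 of them passed the filter on low counts that left 19929 genes for testing. The exception was GALC, the galactocerebrosidase gene, which had at most 2 counts in any library and is given no fold change. Lysosomal hydrolases are made in the endoplasmic reticulum, most of them carry a mannose 6-phosphate tag that directs them to lysosomes, and they break down proteins, glycans and lipids at acid pH. Many of their genes share a promoter element, called CLEAR, that is bound by TFEB, TFE3 and MITF. Loss of single enzymes causes storage disorders, and in tumors cathepsins are also known as secreted proteases.

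RNA sequencing had been carried out on 12 libraries of cultured human cells, 3 in each of 4 groups. A498 and 786-O are established lines of clear cell renal cell carcinoma (ccRCC), both known to lack functional VHL, and served as the parental groups. The sunitinib-resistant groups, called resistant 786-O and resistant A498 here, were derived from these lines by growth in rising concentrations of sunitinib, an inhibitor of VEGF and other receptor tyrosine kinases, until growth was stable at 4 μM for resistant 786-O and at 2 μM for resistant A498, after 4 months or more than 20 passages. Sunitinib stayed in the medium throughout the selection. The library names of all 4 groups hold the tag veh, which may stand for vehicle. Apart from this tag, the labels give no drug treatment for any library. Each resistant group is 1 selected culture of 1 line, and neither the labels nor the methods say that the replicates are separate cultures, so p-values measure the spread between these libraries, which may be technical. Each group carries its own batch label, so that batch and group cannot be told apart in any comparison between groups.

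The libraries held 20042519 to 47972092 counts (median 37898338). Values are given as CPM, counts per 1000000 counts of a library, scaled by the trimmed mean of M values (TMM), and a change is the log2 fold change with its standard error (SE). A change was called where the edgeR quasi-likelihood test gave a Benjamini-Hochberg adjusted p below 0.05 over all genes tested. The kidney lineage factor PAX8 stood at 200 to 312 CPM in the group means, and KRT8, KRT18 and VIM were abundant, but the ccRCC markers CA9 and NDUFA4L2 were close to 0, with group means of at most 1.29 and 0.573 CPM. Of 10 macrophage markers, PTPRC, CD163, AIF1 and TYROBP had at most 3 counts in any library, and the list summed to between 2.31 and 4.51 CPM per library. Of 10 T cell markers, CD3D, CD3E, CD3G, CD2, CD28 and PTPRC had at most 3 counts, and IL7R made up nearly all of the list's 27.6 to 208 CPM. The 9 fibroblast markers summed to 7.14 to 63.0 CPM, with COL1A2 at 3 counts or fewer, COL1A1 at 55.4 CPM in parental A498 and LUM at 16.2 CPM in resistant A498.

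The libraries labelled resistant A498 went against their label. Over all genes tested, their median Pearson correlation of log2 CPM was 0.870 with parental A498, 0.951 with parental 786-O and 0.982 with resistant 786-O, and over the 44 lysosomal genes it was 0.687, 0.908 and 0.988. These are correlations across genes, which are not independent replicates. Resistant A498 was therefore compared with both parental lines. The comparisons of resistant 786-O and of resistant A498 with parental 786-O share the parental 786-O libraries, and the 2 comparisons of resistant A498 share the resistant A498 libraries. In addition, resistant 786-O replicate 2 stood apart from the other resistant 786-O libraries: its lysosomal genes lay at a median of 0.18 log2 above their mean in the other resistant 786-O replicates. The median coefficient of variation of the lysosomal genes with at least 10 CPM was 8.75% in resistant 786-O, against 2.56% to 2.99% in the other groups. The fit shares a common estimate of the spread over all groups. The spread of resistant 786-O therefore also enters the SE and p-values of comparisons without that group.

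Promoter sequences were available for 33 of the 45 genes, as RefSeq windows of 300 bases on GRCh38.p14 that run from 250 bases before to 50 bases after a transcript start. They are shown for the genes that hold the longer CLEAR core TCACGTGA, which contains the E-box CACGTG and, like it, reads the same on both strands. Capitals mark every CACGTG and TCACGTGA.
CTSA (chr20:45891085-45891384, plus strand): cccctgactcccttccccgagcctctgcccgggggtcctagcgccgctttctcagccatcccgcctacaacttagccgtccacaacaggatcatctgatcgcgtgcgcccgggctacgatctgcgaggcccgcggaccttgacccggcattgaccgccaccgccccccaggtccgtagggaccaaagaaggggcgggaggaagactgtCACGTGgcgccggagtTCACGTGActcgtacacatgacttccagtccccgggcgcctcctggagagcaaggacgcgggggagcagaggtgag
GAA (chr17:80101331-80101630, plus strand): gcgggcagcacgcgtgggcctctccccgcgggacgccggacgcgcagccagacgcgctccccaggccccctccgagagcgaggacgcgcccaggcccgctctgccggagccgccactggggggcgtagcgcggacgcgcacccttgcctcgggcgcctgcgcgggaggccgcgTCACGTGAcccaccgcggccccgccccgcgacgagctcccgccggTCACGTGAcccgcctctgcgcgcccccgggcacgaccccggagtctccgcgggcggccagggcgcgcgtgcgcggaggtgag
GALNS (chr16:88856898-88857197, minus strand): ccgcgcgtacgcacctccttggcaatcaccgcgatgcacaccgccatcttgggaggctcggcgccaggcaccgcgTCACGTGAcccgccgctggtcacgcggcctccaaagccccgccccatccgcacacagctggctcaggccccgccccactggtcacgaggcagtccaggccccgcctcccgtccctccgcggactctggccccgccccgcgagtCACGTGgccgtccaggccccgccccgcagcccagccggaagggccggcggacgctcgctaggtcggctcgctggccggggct

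GAA holds the longer core at 2 positions, and CTSA and GALNS hold it at 1 position each beside a further CACGTG. The E-box alone was also found in windows of CTSD, CTSF, NEU1, ACP5 and ARSB. In all, 8 of 33 lysosomal genes (24.2%) held CACGTG and 3 of 33 (9.09%) held TCACGTGA. Among 46 windows of these genes the shares were 17.4% and 6.52%, against 7.26% and 0.98% of all 35116 windows in the table and 8.94% and 1.53% of the 18097 windows of genes tested. Genes with CACGTG did not move alike. Against parental 786-O, GAA rose by 2.25 ± 0.06 (log2, SE) in resistant 786-O and NEU1 by 1.99 ± 0.05, while CTSF fell by 2.06 ± 0.38. CTSA, GAA and GALNS, which hold TCACGTGA, rose by 0.84, 2.25 and 0.61 in resistant 786-O. In resistant A498 against parental 786-O they rose by 0.90, 1.48 and 0.32. Against parental A498, CTSA and GALNS rose by 0.26 and 0.24 and GAA fell by 0.97. A match describes the letters in the window and is not a binding measurement.

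In resistant 786-O, most lysosomal hydrolase genes were expressed at a higher level than in the parental 786-O cells. Of the 44 genes tested, 37 rose and 4 fell (edgeR adjusted p below 0.05), where 35.0% of all genes tested rose and 33.5% fell. Their median log2 fold change was 0.87, against 0.03 over all genes tested. More than 2-fold changes were called upward for 20 genes and downward for 1, against 16.2% and 5.76% of all genes. The genes that fell were CTSC, CTSF, ARSB and PPT1, and those that did not pass the test were CTSZ, GUSB and PPT2, which were called lower (-0.19, -0.20 and -0.46) with trends in GC content and length removed. PPT2 was also called lower without resistant 786-O replicate 2 (-0.41) and CTSZ higher without replicate 1 (0.16). The largest rises were those of ACP5, SGSH, GAA, DNASE2 and IDUA.

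Most of these genes were also higher in the libraries labelled resistant A498 than in parental 786-O. Against parental 786-O, 33 rose and 5 fell, where 31.6% of all genes rose and 32.1% fell, and the median change was 0.89, against 0.00 over all genes. Changes above 2-fold were called upward for 18 and downward for 1, with 13.7% and 6.3% of all genes past the same limits. Against parental A498, the line named in their label, the picture was mixed: 23 rose and 16 fell, with 36.3% and 36.4% of all genes called in these directions. The median was 0.25, and 10 genes rose and 2 fell by more than 2-fold, where 14.3% and 16.5% of all genes did so. With CTSF, which was near 0 in resistant A498, set at the bound given below, both medians stayed as they were. The count of 5 genes that fell against parental 786-O was 3 without resistant A498 replicate 2 or 3 or without parental 786-O replicate 1, where HYAL2 and ARSB were no longer called.

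**Figure D1:**
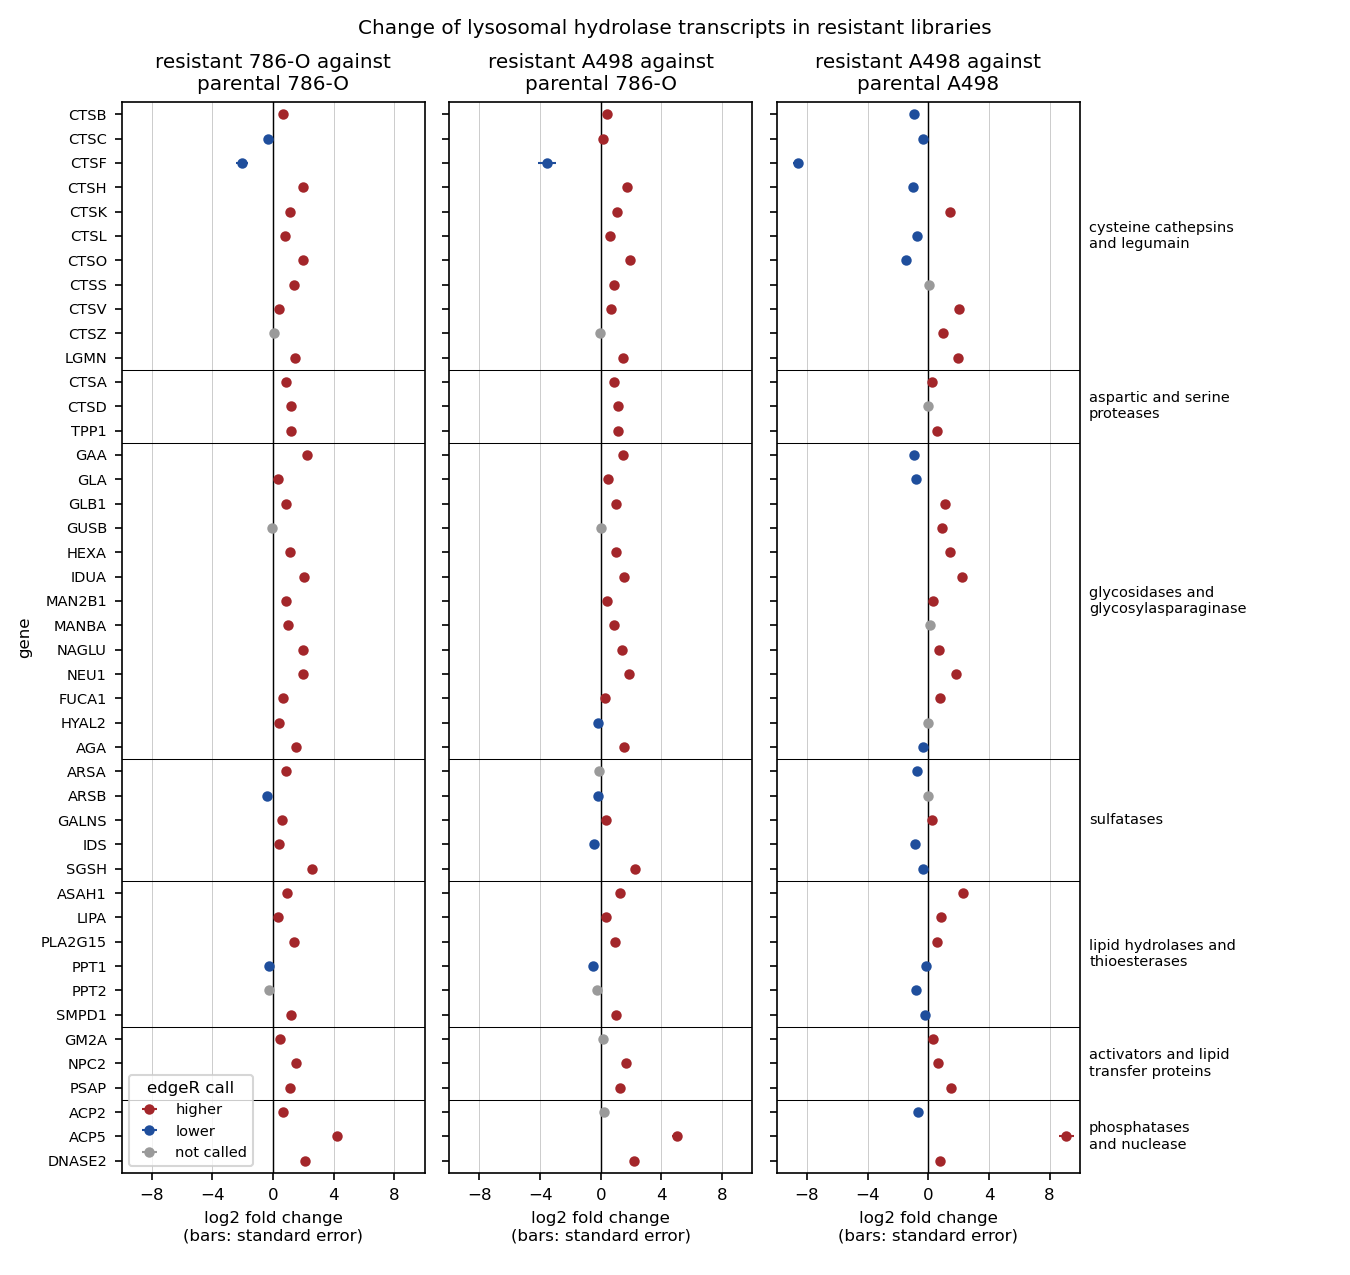
Log2 fold change (horizontal axis, bars are SE) of the 44 lysosomal genes tested, ordered by enzyme class, for resistant against parental 786-O, resistant A498 against parental 786-O and resistant against parental A498, with n = 3 libraries per group. Red points were called higher, blue lower and gray points were not called. The 37 and 33 red points of the first and second panels contrast with 23 red and 16 blue points in the third.

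The parental lines themselves differed in these genes. In parental 786-O, 24 genes were lower and 14 higher than in parental A498 (median -0.47), where 36.1% of all genes were lower and 38.2% higher. More than 2-fold, 13 were lower and 2 higher, beside 19.8% and 12.1% of all genes. With trends in GC content and length removed, the median was -0.15. Parental 786-O had the lowest group mean for 22 of the 44 genes and parental A498 for 14. The highest mean belonged to resistant 786-O for 17, parental A498 for 15, resistant A498 for 10 and parental 786-O for 2. These orders were not counted over all genes, so the share of all genes with each order is not known. The resistant groups lay closer to each other. Between resistant A498 and resistant 786-O, 8 genes were higher and 17 lower in resistant A498 (23.0% and 23.0% of all genes), 19 did not pass the test, and none of the 44 was called beyond 2-fold, where 2.91% of all genes were called upward and 4.4% downward. Only CTSF had a fitted change past that size, at -1.51 ± 0.80, which rests on 0 to 2 counts in resistant A498 and did not pass the test. Without resistant 786-O replicate 2, 13 genes were higher in resistant A498.

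The 45 genes, which include activators and lipid transfer proteins, summed on average to 0.669% of the raw counts in parental A498 and 0.513% in parental 786-O. In resistant A498 they summed to 0.995% and in resistant 786-O to 0.992%. The sums were 6870, 6690 and 6697 CPM in the parental A498 libraries and 5577, 5404 and 5459 CPM in parental 786-O. They were 9015, 10320 and 9459 CPM in resistant 786-O and 9530, 9673 and 9503 CPM in resistant A498, so that every resistant library lay above every parental one. In resistant A498, PSAP, CTSD and CTSZ supplied 53.0% of the sum. PSAP alone had a mean of 1130 CPM in parental A498 and 3128 in resistant A498, a large part of the gain between these groups. The class of activators and lipid transfer proteins grew from 1276 ± 25.2 CPM (SD, n = 3) in parental A498 and 1405 ± 24.6 in parental 786-O to 3029 ± 94.0 in resistant 786-O and 3341 ± 20.3 in resistant A498. The cysteine cathepsins and legumain differed less, with 1914 ± 52.6 CPM in parental A498, 1461 ± 19.7 in parental 786-O, 1957 ± 274 in resistant 786-O and 1796 ± 9.61 in resistant A498.

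**Figure D2:**
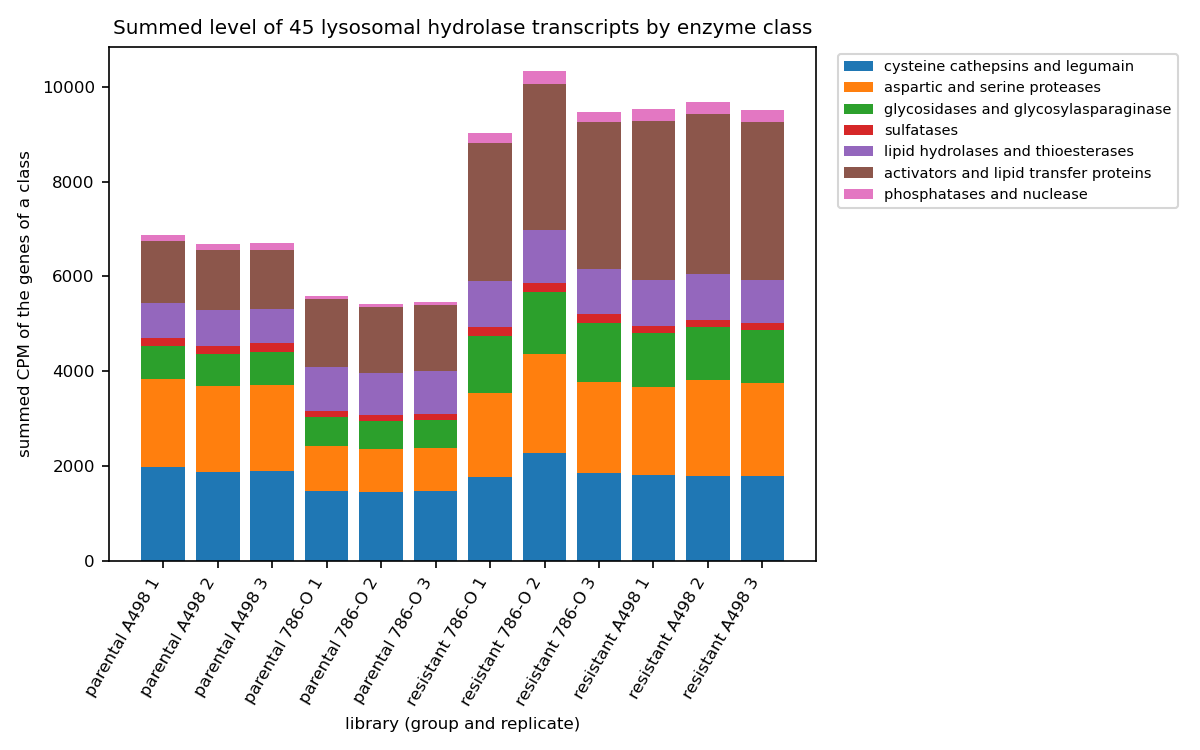
Summed CPM (vertical axis, from 0) of the 45 lysosomal genes in each of the 12 libraries, stacked by enzyme class. The 6 resistant libraries reach 9015 to 10320 CPM and the 6 parental libraries 5404 to 6870 CPM, and the brown segment of activators and lipid transfer proteins differs most in height.

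**Figure D3:**
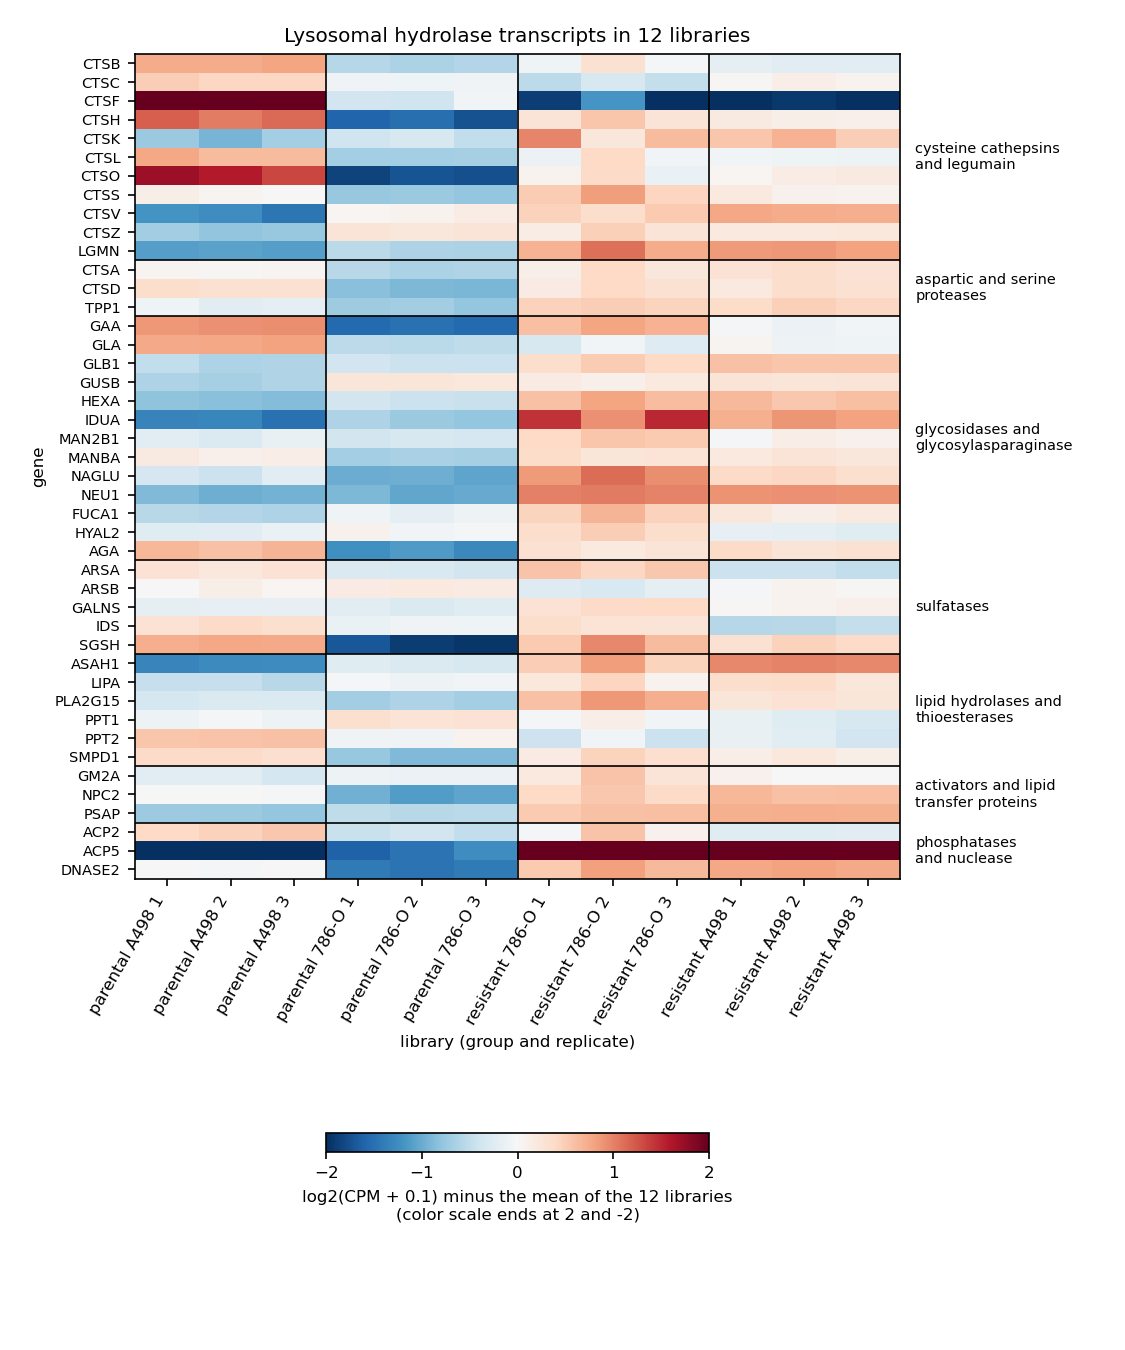
Level of the 44 lysosomal genes tested (rows, by enzyme class) in the 12 libraries (columns), as log2(CPM + 0.1) minus the mean of the gene over the 12 libraries. Colors end at 2 and -2, which ACP5 and CTSF exceed. The columns of resistant 786-O and resistant A498 resemble each other. The lowest mean of a row lies in parental 786-O for 22 genes and in parental A498 for 14, which was not counted over all genes.

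The cysteine cathepsins are papain-like proteases, and legumain is an asparaginyl endopeptidase that also matures several of them. Of 11 genes, 8 rose and 2 fell in resistant 786-O (35.0% and 33.5% of all genes). In resistant A498, 9 rose and 1 fell against parental 786-O (31.6% and 32.1% of all genes). Against parental A498, 4 rose and 6 fell (36.3% and 36.4% of all genes). Cathepsin H (CTSH, chromosome 15, 78921058 to 78949574, minus strand; GRCh38, GENCODE release 44 as for all positions here), an aminopeptidase that acts in surfactant protein maturation, measured 59.9, 52.9 and 56.8 CPM in parental A498, 8.57, 9.08 and 7.70 CPM in parental 786-O, 31.1, 38.4 and 30.9 CPM in resistant 786-O and 29.4, 28.3 and 27.8 CPM in resistant A498. Parental A498 was highest, parental 786-O lowest and the resistant groups in between, with no overlap between parental 786-O and any other group. The change was 1.99 ± 0.09 in resistant against parental 786-O (edgeR adjusted p = 9.1e-11), 1.76 ± 0.09 in resistant A498 against parental 786-O and -0.99 ± 0.08 against parental A498.

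Cathepsin O (CTSO) had the same order of groups at a lower level, with 20.5, 18.8 and 15.8 CPM in parental A498, 1.66, 1.81 and 1.77 CPM in parental 786-O, 6.56, 8.18 and 5.64 CPM in resistant 786-O and 6.41, 6.89 and 7.04 CPM in resistant A498. It rose by 1.95 ± 0.15 in resistant 786-O and by 1.95 ± 0.16 in resistant A498 against parental 786-O, and against parental A498 it fell by 1.44 ± 0.13. Cathepsin S (CTSS), which trims the invariant chain of MHC class II, measured 82.3, 78.8 and 75.3 CPM in parental A498, 44.8, 45.3 and 44.5 CPM in parental 786-O, 108, 136 and 102 CPM in resistant 786-O and 87.0, 80.6 and 80.0 CPM in resistant A498. Its parental 786-O libraries were the lowest and its resistant 786-O libraries the highest, while parental A498 and resistant A498 overlapped. It rose by 1.36 ± 0.08 in resistant 786-O and by 0.88 ± 0.08 in resistant A498 against parental 786-O, and its change of 0.07 ± 0.08 in resistant against parental A498 did not pass the test but was called lower, at -0.22, with GC and length trends removed.

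Cathepsin K (CTSK), the collagen-degrading cathepsin of osteoclasts, lies 28.9 kb from CTSS on chromosome 1 and was expressed at a low level, with 0.811, 0.697 and 0.846 CPM in parental A498, 1.05, 1.11 and 0.976 CPM in parental 786-O, 2.88, 1.67 and 2.25 CPM in resistant 786-O and 2.12, 2.35 and 2.03 CPM in resistant A498. All 6 resistant libraries exceeded all 6 parental ones, and resistant 786-O replicate 2 was the lowest of the resistant libraries. The change was 1.12 ± 0.19 in resistant 786-O, 1.05 ± 0.20 in resistant A498 against parental 786-O and 1.45 ± 0.23 against parental A498. Legumain (LGMN, chromosome 14, 92703807 to 92748679, minus strand) measured 35.2, 36.2 and 35.4 CPM in parental A498, 52.2, 49.6 and 48.9 CPM in parental 786-O, 123, 163 and 127 CPM in resistant 786-O and 137, 139 and 134 CPM in resistant A498. The resistant groups were alike and lay above both parental lines, with changes of 1.45 ± 0.08 in resistant 786-O (edgeR adjusted p = 8.7e-10), 1.45 ± 0.08 in resistant A498 against parental 786-O and 1.94 ± 0.09 against parental A498.

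Cathepsin V (CTSV), the close relative of cathepsin L, measured 11.1, 10.7 and 9.34 CPM in parental A498, 26.3, 26.9 and 28.4 CPM in parental 786-O, 35.2, 32.4 and 36.9 CPM in resistant 786-O and 43.5, 42.7 and 42.5 CPM in resistant A498. Here parental A498 was the lowest group and resistant A498 the highest, so the rise was 2.04 ± 0.07 against parental A498 but 0.66 ± 0.07 against parental 786-O and 0.36 ± 0.06 for resistant 786-O. Cathepsin L (CTSL), a broad endopeptidase, had the highest CPM per kilobase of its class when the union of exons was used as length, although CTSB took that place with the longest transcript and CTSZ with the Ensembl canonical transcript. Its values were 545, 491 and 492 CPM in parental A498, 199.5, 198 and 202 CPM in parental 786-O, 294, 418 and 306 CPM in resistant 786-O and 308, 299 and 296 CPM in resistant A498. Parental A498 lay above and parental 786-O below every other library, and resistant 786-O replicate 2 was the highest resistant library. CTSL rose by 0.77 ± 0.10 in resistant 786-O and 0.59 ± 0.10 in resistant A498 against parental 786-O, and fell by 0.76 ± 0.10 in resistant against parental A498.

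Cathepsin F (CTSF, chromosome 11, 66563464 to 66568879, minus strand), a protease expressed in many tissues, went the other way. It measured 17.9, 16.2 and 17.0 CPM in parental A498, 0.473, 0.466 and 0.621 CPM in parental 786-O, 0.102, 0.229 and 0.0437 CPM in resistant 786-O and 0.0373, 0.0957 and 0 CPM in resistant A498. Only parental A498 had more than 1 CPM, and the resistant A498 libraries held 0 to 2 counts. With a floor of 3 counts per library, CTSF was at least 136-fold lower in resistant A498 than in parental A498 and at least 4.14-fold lower than in parental 786-O. In resistant 786-O the change was -2.06 ± 0.38 against parental 786-O (edgeR adjusted p = 0.00022), and -2.77 without resistant 786-O replicate 2. Of the remaining genes, cathepsin B (CTSB) rose by 0.66 ± 0.08 in resistant 786-O and 0.38 ± 0.08 in resistant A498 against parental 786-O, the latter not called with GC and length trends removed (0.18), and its change against parental A498 was -0.97 ± 0.08. Cathepsin C (CTSC), which activates granule serine proteases, fell by 0.36 ± 0.05 in resistant 786-O and rose by 0.15 ± 0.05 in resistant A498 against parental 786-O, a call lost without any 1 of the parental 786-O libraries (0.14 to 0.15) and turned to -0.09 with GC and length trends removed. Against parental A498, CTSC fell by 0.36 ± 0.05. Cathepsin Z (CTSZ), a carboxypeptidase, had means of 387 ± 13.0 CPM (SD, n = 3) in parental A498, 769 ± 10.8 in parental 786-O, 800.1 ± 98.3 in resistant 786-O and 748 ± 4.12 in resistant A498, and was called higher in resistant against parental A498 (0.95 ± 0.07) but not against parental 786-O (-0.04 ± 0.07).

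All 3 genes for aspartic and serine proteases rose in resistant 786-O and in resistant A498 against parental 786-O (35.0% and 31.6% of all genes). Against parental A498, 2 of 3 rose in resistant A498 (36.3% of all genes). Cathepsin D (CTSD, chromosome 11, 1752752 to 1764573, minus strand), the main aspartic protease of the lysosome, measured 1250, 1211 and 1210 CPM in parental A498, 549, 526 and 520.5 CPM in parental 786-O, 1094, 1288 and 1206 CPM in resistant 786-O and 1122, 1251 and 1218 CPM in resistant A498. Of the CTSD exon bases, 27.3% overlap other genes on the same strand, which may affect its counts. The parental 786-O libraries of CTSD were below the other 9, whose ranges overlapped. The change was 1.17 ± 0.06 in resistant 786-O (edgeR adjusted p = 2.4e-10) and 1.17 ± 0.06 in resistant A498 against parental 786-O, and -0.03 ± 0.06 against parental A498, which did not pass the test but was called higher, at 0.28, with GC and length trends removed. Tripeptidyl peptidase 1 (TPP1), a serine protease that removes N-terminal tripeptides, measured 91.4, 84.4 and 85.3 CPM in parental A498, 59.5, 60.1 and 57.1 CPM in parental 786-O, 134, 137 and 133 CPM in resistant 786-O and 126, 135 and 129.6 CPM in resistant A498. Its resistant libraries lay above both parental groups, by 1.19 ± 0.05 in resistant 786-O, 1.14 ± 0.05 in resistant A498 against parental 786-O and 0.58 ± 0.05 against parental A498. Of the TPP1 exon bases, 11.6% overlap another gene on the same strand. Cathepsin A (CTSA), a carboxypeptidase that also protects β-galactosidase and neuraminidase 1 in a complex, rose by 0.84 ± 0.06 in resistant 786-O, by 0.90 ± 0.06 in resistant A498 against parental 786-O and by 0.26 ± 0.06 against parental A498.

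The glycosidases and glycosylasparaginase remove sugars from glycoproteins, glycolipids, glycosaminoglycans and glycogen. Of 13 genes tested, 12 rose and none fell in resistant 786-O (35.0% and 33.5% of all genes). In resistant A498, 11 rose and 1 fell against parental 786-O (31.6% and 32.1% of all genes). Against parental A498, 8 rose and 3 fell (36.3% and 36.4% of all genes). In resistant 786-O the gene not called was GUSB, at -0.07 ± 0.04, but it was called lower, at -0.20, with GC and length trends removed. Neuraminidase 1 (NEU1, chromosome 6, 31857659 to 31862905, minus strand), the lysosomal sialidase, had the highest CPM per kilobase of the class, except with the longest transcript as length, where GLB1 had it. It measured 89.7, 83.7 and 85.9 CPM in parental A498, 88.1, 80.6 and 81.7 CPM in parental 786-O, 330.4, 339.9 and 327 CPM in resistant 786-O and 307, 311 and 306 CPM in resistant A498. The parental lines were alike and the resistant libraries were all at 306 CPM or more, with changes of 1.99 ± 0.05 in resistant 786-O (edgeR adjusted p = 8.5e-14), 1.89 ± 0.05 in resistant A498 against parental 786-O and 1.83 ± 0.05 against parental A498. β-Galactosidase (GLB1), which removes galactose from gangliosides and keratan sulfate, measured 85.3, 78.6 and 79.1 CPM in parental A498, 92.3, 89.7 and 89.1 CPM in parental 786-O, 153, 171 and 159 CPM in resistant 786-O and 181, 176 and 177 CPM in resistant A498. Its resistant libraries were again all above the parental ones, by 0.83 ± 0.05 in resistant 786-O, 0.98 ± 0.05 in resistant A498 against parental 786-O and 1.13 ± 0.05 against parental A498.

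Hexosaminidase A (HEXA), the α subunit of the enzyme that degrades GM2 ganglioside, measured 48.0, 46.7 and 45.5 CPM in parental A498, 64.8, 62.1 and 61.1 CPM in parental 786-O, 126, 144 and 128 CPM in resistant 786-O and 130.4, 121 and 126 CPM in resistant A498. It rose by 1.08 ± 0.06 in resistant 786-O, by 1.01 ± 0.06 in resistant A498 against parental 786-O and by 1.43 ± 0.06 against parental A498, with no overlap between resistant and parental libraries. Iduronidase (IDUA), which acts on heparan and dermatan sulfate, had values of 4.02, 4.14 and 3.60 CPM in parental A498, 6.73, 6.16 and 6.03 CPM in parental 786-O, 28.2, 19.7 and 29.7 CPM in resistant 786-O and 16.9, 19.2 and 18.1 CPM in resistant A498. The levels were low but separate, and resistant 786-O replicate 2 was below the other resistant 786-O libraries. The changes were 2.04 ± 0.13 in resistant 786-O, 1.52 ± 0.13 in resistant A498 against parental 786-O and 2.20 ± 0.15 against parental A498. N-acetylglucosaminidase (NAGLU), which acts on heparan sulfate, measured 45.9, 43.0 and 49.3 CPM in parental A498, 29.2, 29.4 and 27.8 CPM in parental 786-O, 104, 126 and 111 CPM in resistant 786-O and 75.1, 77.1 and 72.2 CPM in resistant A498. It was highest in resistant 786-O and rose there by 1.98 ± 0.07, and in resistant A498 it rose by 1.38 ± 0.07 against parental 786-O and by 0.70 ± 0.07 against parental A498.

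Acid α-glucosidase (GAA, chromosome 17, 80101533 to 80119881, plus strand), which degrades glycogen, behaved differently against the parental lines. It measured 82.3, 85.5 and 85.9 CPM in parental A498, 15.2, 15.9 and 15.3 CPM in parental 786-O, 68.5, 78.0 and 73.4 CPM in resistant 786-O and 44.4, 41.6 and 43.5 CPM in resistant A498. The order was parental A498, resistant 786-O, resistant A498 and parental 786-O with no overlap. GAA rose by 2.25 ± 0.06 in resistant 786-O (edgeR adjusted p = 1.9e-13) and by 1.48 ± 0.06 in resistant A498 against parental 786-O, and fell by 0.97 ± 0.05 against parental A498. Aspartylglucosaminidase (AGA), which cleaves the link between asparagine and the glycan, measured 34.7, 32.9 and 34.9 CPM in parental A498, 9.31, 9.85 and 8.87 CPM in parental 786-O, 26.9, 25.1 and 26.2 CPM in resistant 786-O and 28.6, 26.0 and 27.0 CPM in resistant A498. Like GAA, it rose against parental 786-O, by 1.48 ± 0.06 in resistant 786-O and by 1.54 ± 0.06 in resistant A498. Its change in resistant against parental A498 was -0.33 ± 0.06. Unlike GAA, AGA overlapped between the resistant groups. Of the others, GLA, MAN2B1, MANBA, FUCA1 and HYAL2 rose in resistant 786-O by 0.32 to 0.96. GLA, MAN2B1, MANBA and FUCA1 also rose in resistant A498 against parental 786-O, by 0.31 to 0.89. Against parental A498, GLA changed by -0.82 ± 0.07, MAN2B1 by 0.28 ± 0.06, FUCA1 by 0.77 ± 0.07 and GUSB by 0.88 ± 0.04, all called, and MANBA (0.08 ± 0.06) was not called. In resistant A498 against parental 786-O, HYAL2, a hyaluronidase gene, fell by 0.20 ± 0.06. Its rise in resistant 786-O was -0.05 with GC and length trends removed. HYAL2 shares 11.5% of its exon bases with TUSC2, which had 414 to 1361 counts per library. MAN2B1 and NAGLU overlap other genes on the same strand in 21.2% and 12.9% of their exon bases.

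**Figure D4:**
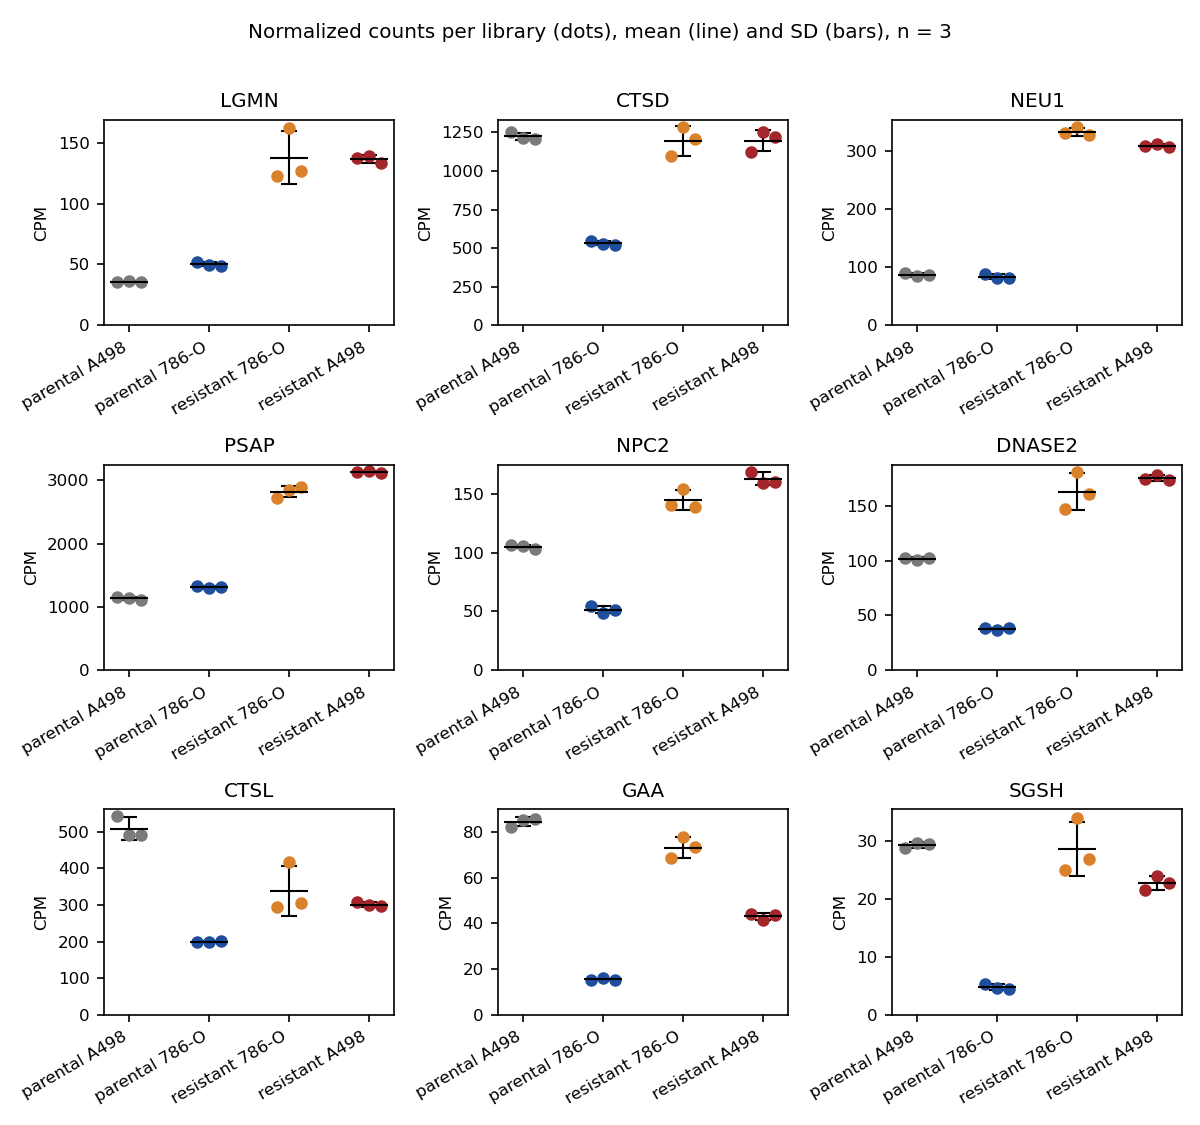
CPM (vertical axes, each from 0) of 9 lysosomal genes in each library of the 4 groups; dots are libraries, horizontal lines are group means and bars are SD (n = 3). LGMN, NEU1, PSAP, NPC2 and DNASE2 were higher in every resistant library than in every parental one, whereas CTSL, GAA and SGSH had their highest mean in parental A498 and the CTSD values of parental A498 overlapped those of the resistant groups.

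Lysosomal sulfatases remove sulfate from glycosaminoglycans and sulfatides and need activation by SUMF1. Of 5 genes, 4 rose and 1 fell in resistant 786-O (35.0% and 33.5% of all genes). In resistant A498, 2 rose and 2 fell against parental 786-O (31.6% and 32.1% of all genes). Against parental A498, 1 rose and 3 fell (36.3% and 36.4% of all genes). Sulfamidase (SGSH, chromosome 17, 80206716 to 80220923, minus strand), which acts on heparan sulfate, lies 86.8 kb from GAA and measured 28.7, 29.7 and 29.5 CPM in parental A498, 5.31, 4.60 and 4.42 CPM in parental 786-O, 25.1, 34.0 and 26.9 CPM in resistant 786-O and 21.5, 24.0 and 22.8 CPM in resistant A498. The parental 786-O libraries were far below all others. SGSH rose by 2.59 ± 0.11 in resistant 786-O (edgeR adjusted p = 4.3e-11) and by 2.25 ± 0.11 in resistant A498 against parental 786-O, and fell by 0.37 ± 0.10 against parental A498, a call lost with GC and length trends removed (-0.12). Arylsulfatase A (ARSA), which degrades sulfatide, measured 44.7, 42.5 and 44.9 CPM in parental A498, 29.8, 29.7 and 28.4 CPM in parental 786-O, 54.1, 48.8 and 53.0 CPM in resistant 786-O and 27.2, 27.2 and 26.1 CPM in resistant A498. It rose by 0.83 ± 0.05 in resistant 786-O. Its change in resistant A498 was -0.13 ± 0.06 against parental 786-O, which did not pass the test, and -0.72 ± 0.06 against parental A498. The first was called with GC and length trends removed (-0.23) and without resistant 786-O replicate 2 (-0.13). The difference between resistant A498 and resistant 786-O was -0.95 ± 0.05 and was called. ARSA had the highest CPM per kilobase of exon union in its class, and GALNS with either single transcript. GALNS rose by 0.61 ± 0.05 in resistant 786-O, 0.32 ± 0.05 in resistant A498 against parental 786-O and 0.24 ± 0.05 against parental A498, and in resistant 786-O ARSB fell by 0.43 ± 0.06. The call of ARSB in resistant A498 against parental 786-O (-0.15 ± 0.06) was lost without any 1 library of resistant A498 or parental 786-O, or resistant 786-O replicate 1 or 3, at -0.16 to -0.10. IDS rose by 0.39 ± 0.06 in resistant 786-O and fell by 0.44 ± 0.06 in resistant A498 against parental 786-O and 0.87 ± 0.06 against parental A498, but 75.9% of its exon bases overlap another gene on the same strand.

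Lysosomal lipid hydrolases and thioesterases break down lipids and lipid-modified proteins. Of 6 genes, 4 rose and 1 fell in resistant 786-O (35.0% and 33.5% of all genes). The counts were the same in resistant A498 against parental 786-O (31.6% and 32.1% of all genes). Against parental A498, 3 rose and 3 fell in resistant A498 (36.3% and 36.4% of all genes). Acid ceramidase (ASAH1), which releases sphingosine from ceramide, measured 43.8, 45.4 and 46.1 CPM in parental A498, 92.6, 89.4 and 88.2 CPM in parental 786-O, 154, 197 and 149.9 CPM in resistant 786-O and 213, 218 and 214 CPM in resistant A498. Parental A498 was lowest and resistant A498 highest, and all resistant libraries lay above the parental ones. ASAH1 rose by 0.89 ± 0.08 in resistant 786-O, 1.26 ± 0.08 in resistant A498 against parental 786-O and 2.26 ± 0.08 against parental A498 (edgeR adjusted p = 3e-12). The lysosomal phospholipase PLA2G15 measured 43.9, 45.9 and 45.9 CPM in parental A498, 34.7, 36.5 and 35.0 CPM in parental 786-O, 85.0, 103 and 93.0 CPM in resistant 786-O and 66.3, 69.0 and 66.2 CPM in resistant A498. It was highest in resistant 786-O, with changes of 1.40 ± 0.06 in resistant 786-O, 0.92 ± 0.06 in resistant A498 against parental 786-O and 0.57 ± 0.06 against parental A498. Acid sphingomyelinase (SMPD1) measured 72.5, 72.6 and 69.2 CPM in parental A498, 32.7, 30.1 and 30.1 CPM in parental 786-O, 62.2, 75.1 and 69.8 CPM in resistant 786-O and 60.5, 64.4 and 60.4 CPM in resistant A498. Its lowest libraries were those of parental 786-O, against which it rose by 1.16 ± 0.07 in resistant 786-O and 0.99 ± 0.07 in resistant A498, while it fell by 0.21 ± 0.07 in resistant against parental A498. That call was lost without resistant A498 replicate 1 (-0.17) or 3 (-0.16), and the change was 0.13 with GC and length trends removed.

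Palmitoyl-protein thioesterase 1 (PPT1), which removes palmitate from proteins and had the highest CPM per kilobase of this class, was lower in each comparison of resistant with parental cells. It measured 464, 479 and 461 CPM in parental A498, 617, 601 and 605 CPM in parental 786-O, 487, 540.1 and 476 CPM in resistant 786-O and 448, 420.5 and 396 CPM in resistant A498. The change was -0.28 ± 0.05 in resistant 786-O, -0.53 ± 0.05 in resistant A498 against parental 786-O and -0.15 ± 0.05 against parental A498. The last call was lost without resistant A498 replicate 2 or 3, resistant 786-O replicate 1 or 3, or parental A498 replicate 2, at -0.13 to -0.08. Acid lipase (LIPA), which frees cholesterol from cholesteryl esters, rose by 0.30 ± 0.07 in resistant 786-O, by 0.37 ± 0.07 in resistant A498 against parental 786-O and by 0.81 ± 0.07 against parental A498. PPT2 shares 49.3% of its exon bases with the readthrough gene PPT2-EGFL8, which had 533 to 1751 counts against 63 to 180 for PPT2, so its counts are uncertain.

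Activators and lipid transfer proteins present lipids to the enzymes or carry them away. All 3 genes of this class rose in resistant 786-O (35.0% of all genes) and in resistant against parental A498 (36.3%). In resistant A498 against parental 786-O, 2 of 3 rose (31.6% of all genes). Prosaposin (PSAP, chromosome 10, 71816298 to 71851251, minus strand), the precursor of the saposins that present sphingolipids to their hydrolases, measured 1151, 1132 and 1108 CPM in parental A498, 1332, 1289 and 1307 CPM in parental 786-O, 2725, 2848 and 2895 CPM in resistant 786-O and 3126, 3149 and 3110 CPM in resistant A498. The groups did not overlap and the resistant groups were highest. PSAP rose by 1.11 ± 0.04 in resistant 786-O (edgeR adjusted p = 5.7e-12), 1.26 ± 0.04 in resistant A498 against parental 786-O and 1.47 ± 0.04 against parental A498. NPC2, which hands cholesterol to NPC1, measured 106, 106 and 103 CPM in parental A498, 54.4, 48.7 and 51.3 CPM in parental 786-O, 141, 154 and 139 CPM in resistant 786-O and 169, 159 and 160.5 CPM in resistant A498. It was lowest in parental 786-O and rose by 1.49 ± 0.05 in resistant 786-O, 1.66 ± 0.05 in resistant A498 against parental 786-O and 0.63 ± 0.05 against parental A498. GM2A, the activator of GM2 hydrolysis, rose by 0.46 ± 0.08 in resistant 786-O and by 0.29 ± 0.08 in resistant against parental A498. Its change of 0.14 ± 0.08 in resistant A498 against parental 786-O did not pass the test. GM2A was called there without resistant 786-O replicate 1 (0.17) or 2 (0.14) and with only the groups compared in the fit (0.18).

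Acid phosphatases and an acid nuclease form the last class. All 3 genes rose in resistant 786-O (35.0% of all genes) and 2 of 3 in resistant A498 against parental 786-O (31.6%). Against parental A498, 2 rose and 1 fell in resistant A498 (36.3% and 36.4% of all genes). Tartrate-resistant acid phosphatase (ACP5, chromosome 19, 11574653 to 11579993, minus strand), known from osteoclasts and macrophages, measured 0.116, 0.186 and 0.0368 CPM in parental A498, 1.63, 1.81 and 2.13 CPM in parental 786-O, 24.6, 55.8 and 25.0 CPM in resistant 786-O and 59.9, 60.1 and 62.9 CPM in resistant A498. It was close to 0 in parental A498, where its 3 libraries held 1 to 4 counts, low in parental 786-O and far higher in every resistant library, with resistant 786-O replicate 2 well above the other resistant 786-O libraries. It rose by 4.23 ± 0.30 in resistant 786-O (edgeR adjusted p = 1.1e-08), by 3.72 without replicate 2, and by 5.03 ± 0.30 in resistant A498 against parental 786-O. Against parental A498 the fitted change was 9.09 ± 0.49, which rests on few parental A498 counts. Of the 10 macrophage markers, 5 were tested, and MARCO and CD14 were called higher and CSF1R lower in both resistant groups against parental 786-O. MARCO rose from 0 counts in parental 786-O to 1.84 ± 0.580 CPM in resistant 786-O and 2.15 ± 0.134 in resistant A498, CD14 stayed below 1 CPM in every group mean, and PTPRC, CD163, AIF1 and TYROBP were at or near 0 throughout. Their part in the ACP5 values was not tested. Deoxyribonuclease 2 (DNASE2, chromosome 19, 12875209 to 12881595, minus strand), which degrades DNA in lysosomes, measured 102, 100.4 and 103 CPM in parental A498, 38.5, 36.8 and 38.2 CPM in parental 786-O, 148, 181 and 162 CPM in resistant 786-O and 175, 179 and 174 CPM in resistant A498. Its resistant libraries all exceeded the parental ones, by 2.11 ± 0.06 in resistant 786-O, 2.22 ± 0.06 in resistant A498 against parental 786-O and 0.79 ± 0.06 against parental A498. The lysosomal phosphatase gene ACP2 rose by 0.67 ± 0.12 in resistant 786-O and fell by 0.71 ± 0.12 in resistant against parental A498. Its change of 0.19 ± 0.12 in resistant A498 against parental 786-O did not pass the test. ACP2 was called there without resistant 786-O replicate 2 (0.19) and with only the groups compared in the fit (0.23).

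Across classes, 22 of the 44 genes were higher in each of the 6 resistant libraries than in each of the 6 parental libraries, a pattern held by 11.9% of all genes tested, and CTSF was lower in each, as 11.2% of all genes were. These 22 were CTSK, CTSV, LGMN, CTSA, TPP1, GLB1, HEXA, IDUA, MAN2B1, MANBA, NAGLU, NEU1, FUCA1, GALNS, ASAH1, LIPA, PLA2G15, GM2A, NPC2, PSAP, ACP5 and DNASE2. Without the libraries labelled resistant A498, the 3 libraries of resistant 786-O exceeded all parental libraries for 25 genes, where 17.9% of all genes did. The additional genes were CTSS, HYAL2 and ARSA. In the comparisons of each resistant group with its labelled parental line, 21 genes rose in both and 3 fell in both, where 15.2% and 14.3% of all genes did so. A further 12 rose in resistant 786-O and fell in resistant A498, as 10.6% of all genes did, and none did the reverse, against 11.1% of all genes.

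The difference between the changes in the A498-labelled and 786-O-derived pairs was tested as an interaction. It was called for 38 of 44 genes: the change was lower in the A498 pair for 27 and higher for 11 (34.4% and 33.9% of all genes), with a median difference of -0.58, against -0.02 over all genes, and -0.23 with trends in GC content and length removed. Differences above 2-fold were called lower for 17 and higher for 3, beside 21.3% and 13.8% of all genes. GAA, for example, rose by 2.25 in resistant 786-O and fell by 0.97 in resistant A498, a difference of -3.22 ± 0.08. As the resistant A498 libraries resembled the 786-O-derived libraries, this contrast also holds the difference between the parental lines, and the 2 cannot be told apart here.

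Other genes of the pathway were taken from fixed lists. Of 27 other lysosomal hydrolase genes tested, 18 rose and 1 fell in resistant 786-O, and 19 rose and 2 fell in resistant A498 against parental 786-O (35.0% and 33.5%, and 31.6% and 32.1%, of all genes). Against parental A498, 19 rose and 3 fell in resistant A498 (36.3% and 36.4% of all genes). CPQ, a carboxypeptidase gene, rose by 1.72 ± 0.07 in resistant 786-O and 1.70 ± 0.07 in resistant A498 against parental 786-O, and the mannosidase gene MAN2B2 by 1.69 ± 0.05 and 1.24 ± 0.05. Of 21 genes for delivery and maturation of these enzymes, 13 rose and 6 fell in resistant 786-O (35.0% and 33.5% of all genes). In resistant A498, 11 rose and 7 fell against parental 786-O (31.6% and 32.1% of all genes). Against parental A498, 14 rose and 2 fell (36.3% and 36.4% of all genes). Among the 21 genes, the sorting receptor SORL1 rose by 4.61 ± 0.17 in resistant 786-O, from 1.10 ± 0.135 to 27.0 ± 5.44 CPM (means ± SD, n = 3). In the same comparison GNPTG, a subunit of the phosphotransferase that starts the mannose 6-phosphate tag, rose by 1.13 ± 0.06. LMAN1, a cargo receptor of the early secretory pathway, fell there by 0.86 ± 0.05.

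None of the transcripts of TFEB, TFE3 and MITF was called higher against parental 786-O. TFEB had means of 12.8 ± 0.678 CPM in parental 786-O and 12.2 ± 1.51 in resistant 786-O, a change of -0.07 ± 0.09 that did not pass the test, and fell by 0.40 ± 0.09 in resistant A498 against parental 786-O. TFE3 fell by 0.24 ± 0.05 in resistant 786-O and 0.51 ± 0.05 in resistant A498 against parental 786-O, and MITF by 0.66 ± 0.08 and 0.27 ± 0.08. Against parental A498, TFE3 was higher in resistant A498 by 0.75 ± 0.05. These factors are known to be controlled by phosphorylation and nuclear entry, which RNA sequencing does not measure. RRAGD, which encodes a small GTPase that recruits mTORC1 and TFEB to the lysosome and is itself a known TFEB target, had 0.897 ± 0.0522 CPM in parental 786-O, 28.7 ± 4.02 in resistant 786-O and 35.9 ± 0.574 in resistant A498, a rise of 5.00 ± 0.13 and 5.32 ± 0.13. In parental A498 it already had 14.6 ± 1.22 CPM, and the rise in resistant A498 against that line was 1.30 ± 0.09. Of the 12 regulator genes, 6 rose and 3 fell in resistant 786-O. Of 7 cathepsin inhibitor genes tested, 2 rose and 2 fell there. Of all genes tested, 35.0% rose and 33.5% fell in this comparison. In resistant A498 against parental 786-O, 7 regulator genes rose and 4 fell, and 4 inhibitor genes rose and 2 fell (31.6% and 32.1% of all genes). Against parental A498, 6 regulator genes rose and 3 fell, and 4 inhibitor genes rose and 1 fell (36.3% and 36.4% of all genes). The cystatins CST3 and CSTB rose by 0.70 ± 0.07 and 0.61 ± 0.07 in resistant 786-O and by 0.41 ± 0.07 and 0.34 ± 0.07 in resistant A498 against parental 786-O. Against parental A498, CSTB rose by 0.48 ± 0.07 in resistant A498 and the change of CST3 (-0.13 ± 0.07) did not pass the test. The inhibitor gene SERPINB1 changed by -0.60 ± 0.07 in resistant 786-O, by -0.32 ± 0.07 in resistant A498 against parental 786-O and by 0.31 ± 0.07 against parental A498, all called. SERPINB6, outside the naming rule and chosen after its values were seen, was the other gene that fell in resistant 786-O, at -0.13 ± 0.04.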

How the data were processed

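RNA of 12 libraries of cultured parental A498, resistant A498, parental 786-O and resistant 786-O cells was sequenced as paired ends from a stranded mRNA kit. The authors trimmed the reads with Trimmomatic 0.36.6, aligned them to GRCh38 with HISAT2 2.1.0 and counted exons per GENCODE gene with featureCounts 1.6.3, with its strand option at 1, and deposited raw counts per gene and library. Every library column was used (0 columns left out), and no row lacked a gene. A stranded kit can call for the opposite strand option, which the files used here do not settle; 94.9% to 95.5% of the counts lay on protein-coding genes.

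Groups were taken from the sample titles. Raw counts of genes passing filterByExpr were fitted with edgeR 4.0.16 (R 4.3.3), with TMM factors, 4 group means over all 12 libraries and the quasi-likelihood test, adjusted over 19929 genes. The SE is the size of the log2 fold change divided by the square root of F. The study's own test of raw counts was run as an alternative, because counts call for a count model. In simulated data for resistant against parental 786-O, with 17689 genes, 192 of 200 genes changed 2-fold were recovered and 9 unchanged genes were called. The gene list and the other lists were chosen with earlier results of these data known. Values in every library are given for genes with a called change of at least 1 on the log2 scale and at least 1 CPM in the higher group in a comparison of resistant with parental cells, and for the highest gene per kilobase of each class. From the other lists, at most 3 called genes per list and comparison with 5 CPM or more were eligible, beside TFEB, TFE3, MITF, CST3 and CSTB. A further gene that met this rule is not reported here. Positions are from GENCODE release 44. The cathepsin inhibitor SERPINB13 was not matched and is not analysed here. Counting intervals were not needed beyond a floor of 3 counts per library, which covers counting error only.

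Alternatives were library size alone, no filter, a minimum of 10 counts, only the groups compared and blocking on the replicate number. Others were removal of trends in GC content and length by natural splines, thinning to the smallest library and a prior count of 2 in place of 0.125. DESeq2 1.42.0, a 2-fold limit, leaving out each library and other gene lengths were also used. Of the lengths, the Ensembl canonical transcript was added after the data were seen.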

Additional observations from a re-analysis of the deposited data

Results flagged for a closer look

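In the edgeR test of the difference itself, 34.4% of all genes tested were called lower and 33.9% higher. By this test, 38 of the 44 lysosomal genes changed differently in resistant against parental A498 and in resistant against parental 786-O. The largest differences of lysosomal genes (A498 pair minus 786-O pair, log2) were -6.52 ± 0.78 (SE) for CTSF, -3.39 ± 0.20 for CTSO and -3.22 ± 0.08 for GAA. Next were -2.98 ± 0.12 for CTSH and -2.95 ± 0.15 for SGSH, and 4.86 ± 0.84 for ACP5 in the other direction. The edgeR adjusted p of these genes lay between 6.9e-14 and 0.00011. CTSF and ACP5 rest on 0 to 2 counts in resistant A498 and 1 to 4 counts in parental A498, so their sizes depend on the prior count. CTSO, GAA, CTSH and SGSH had their highest mean in parental A498 and their lowest in parental 786-O, and the libraries labelled resistant A498 correlated more strongly with resistant 786-O than with parental A498. The part of the parental difference in these values cannot be told apart from a difference in response.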

How the results depend on the processing

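Library size alone raised the median of all genes by 0.15 (resistant against parental 786-O, to 0.18, and resistant A498 against parental 786-O, to 0.15). Under it the median of the lysosomal genes was 1.01 in resistant against parental 786-O, 0.32 in resistant against parental A498, 1.05 in resistant A498 against parental 786-O and -0.55 in parental 786-O against parental A498. The last median was -0.37 with no filter and -0.54 with a minimum of 10 counts. With GC and length trends removed, with or without the replicate block, the medians were 0.73 in resistant against parental 786-O, with 7 genes lower, 0.37 in resistant against parental A498, 0.73 in resistant A498 against parental 786-O, -0.15 in parental 786-O against parental A498 and -0.23 for the difference between the changes. Library size alone, a minimum of 10 counts, thinning and DESeq2 each left 3 genes lower in resistant A498 against parental 786-O. With only the groups compared in the fit, 4 genes were higher in resistant A498 than in resistant 786-O.

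With a 2-fold limit, 20 genes rose and 1 fell in resistant against parental 786-O, 10 and 2 in resistant against parental A498, 18 and 1 in resistant A498 against parental 786-O, 0 and 0 between resistant A498 and resistant 786-O, 2 and 13 in parental 786-O against parental A498, and 3 and 17 for the difference between the changes. The test named in the study's methods, run on raw counts with no scaling for depth and no adjustment, gave 1 gene lower and a median of 1.05 in resistant against parental 786-O, 14 higher and 5 lower with a median of 0.06 in resistant against parental A498, 17 higher and 14 lower with 0.16 in resistant A498 against parental 786-O, 0 higher and 41 lower with -1.01 in resistant A498 against resistant 786-O, and 5 lower with 0.08 in parental 786-O against parental A498. Raw counts carry the depth of the libraries, which was 20042519 to 25831163 in resistant A498 and 40845091 to 47972092 in parental 786-O.

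Leaving out 1 library gave a median of 0.84 to 0.93 in resistant against parental 786-O, 3 to 6 genes lower in resistant A498 against parental 786-O, and 6 to 13 genes higher in resistant A498 against resistant 786-O. The other counts and medians kept their direction and stayed within 1.5 times.

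Single genes turned in direction with GC and length trends removed, with and without the replicate block: CTSZ (-0.19 and -0.20) and HYAL2 (-0.05) in resistant against parental 786-O; CTSS (-0.22), CTSD (0.28), MANBA (-0.18), HYAL2 (0.36) and SMPD1 (0.13) in resistant against parental A498; and CTSC (-0.09 and -0.10) in resistant A498 against parental 786-O. On raw counts, resistant A498 against parental 786-O turned to -0.35 for CTSB, -0.58 for CTSC, -0.14 for CTSL, -0.08 for CTSV, -0.24 for GLA, -0.71 for GUSB, -0.34 for MAN2B1, -0.42 for FUCA1, -0.42 for GALNS, -0.36 for LIPA, -0.59 for GM2A and -0.54 for ACP2. The cause was not tested for the other settings.

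Deviations of same-numbered libraries correlated at -0.184 to 0.201 over 10085 genes. Differently numbered libraries were not compared, so whether the replicate numbers pair the libraries was not tested. With the replicate block, 37 genes rose and 4 fell in resistant against parental 786-O, 23 and 16 in resistant against parental A498, 33 and 5 in resistant A498 against parental 786-O, and 14 rose and 25 fell in parental 786-O against parental A498.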
